A study of Rattus norvegicus with 6 samples.

Results

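Expression of 10 genes of the Notch pathway was examined in cultured rat cells: the receptor genes Notch1, Notch2 and Notch3, the ligand genes Jag1, Jag2, Dll1 and Dll4, and the target genes Hes1, Hey1 and Hey2. A gene was taken where the array's annotation gave a probe set that symbol and no other, and all 10 were found, each with 1 probe set, among 18166 measured genes. The cells were NSCPs (nerve-derived Schwann cell precursors) from the sciatic nerve of newborn wild-type Sprague-Dawley rats, which were compared with SKPs (skin-derived precursors) from the back skin of newborn pups of the same strain. There were 3 independent isolates and so 3 arrays of each kind. NSCPs grew on laminin and poly-D-lysine in medium with N2 (2%), forskolin (5 μM) and neuregulin-1β (25 ng/ml), whereas SKPs grew as spheres in medium with EGF (20 ng/ml), FGF2 (40 ng/ml) and, as the run-on growth text was read, B27 (2%). The 2 kinds of culture thus differ in tissue, medium and growth form at once, and these cannot be told apart. No sort is described for either culture, and how many pups went into an isolate is not stated in the sources used here.

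Notch receptors are cell surface proteins that are activated by Jagged and Delta ligands on neighbouring cells. Ligand binding exposes the receptor to ADAM proteases and then to γ-secretase, and the freed intracellular part enters the nucleus, joins the DNA-binding protein RBPJ and a Mastermind coactivator, and switches on genes of the Hes and Hey families, which encode transcriptional repressors. In the mouse nerve, Notch signalling is known to promote the formation and division of Schwann cells and to hold back myelination, opposed there by the transcription factor Krox20, the product of Egr2. In skin, Notch is best known for its part in the epidermis and the hair follicle.

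The letters TGGGAA form the core of the RBPJ recognition sequence, and the promoters of the 2 targets with an entry in the RefSeq promoter table (build GRCr8) are shown because Hes1 is the classical Notch target and Hey2 was the target with the largest difference here. Each runs 5′ to 3′ on the gene's own strand, from 250 bases before the gene's start to 50 after it, and capitals mark TGGGAA or its reverse complement TTCCCA. The Hes1 promoter lies at chr11:84212996-84213295 on the minus strand and the Hey2 promoter at chr1:28640850-28641149 on the plus strand.
Hes1: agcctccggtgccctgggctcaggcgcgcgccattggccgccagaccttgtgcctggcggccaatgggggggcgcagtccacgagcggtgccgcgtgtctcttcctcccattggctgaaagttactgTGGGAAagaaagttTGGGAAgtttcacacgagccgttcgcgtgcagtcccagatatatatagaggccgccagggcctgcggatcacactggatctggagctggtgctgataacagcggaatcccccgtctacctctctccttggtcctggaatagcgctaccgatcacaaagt
Hey2: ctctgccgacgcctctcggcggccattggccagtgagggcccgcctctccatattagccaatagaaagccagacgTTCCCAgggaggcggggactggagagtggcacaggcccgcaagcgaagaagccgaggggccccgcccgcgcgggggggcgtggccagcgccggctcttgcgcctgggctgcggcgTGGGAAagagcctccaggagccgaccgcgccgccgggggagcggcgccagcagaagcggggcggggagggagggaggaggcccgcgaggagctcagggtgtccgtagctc

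In Hes1 both matches read TGGGAA in the direction of the gene, and they begin 123 and 109 bases before its start, 14 bases apart. Hey2 has TTCCCA beginning 175 bases and TGGGAA beginning 60 bases before the start. Of the 10 genes 8 had an entry in the table, and 4 of these, Notch3, Dll1, Hes1 and Hey2, held at least 1 match, 3 of them with 2 matches. Among all 33469 promoters of the same length 25.7% held at least 1 match on either strand and 3.85% at least 2. A match describes the letters only.

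Of the 10 genes 7 differed between the cultures, 2 higher and 5 lower in NSCPs, at an adjusted p under 0.05 by limma, the threshold for every call below. Over all 18166 genes, 43.7% were called, 25.2% higher and 18.6% lower in NSCPs. Jag1, Dll1, Notch2, Notch3 and Hey2 were lower, and Hey1 and Jag2 were higher. The 3 arrays of NSCPs and the 3 of SKPs did not overlap for 8 of the 10 genes, against 56.6% of all genes. Called differences of at least 2-fold were found for 5 of the 10, against 17.4% of all genes. The median difference of the 10 genes was -0.38 on the log2 scale, against 0.14 over all genes. When each array was centred on its median, which moved the median of all genes by 0.20 towards NSCPs, the split became 5 higher and 5 lower among the 10 genes, and 75.1% of all called genes were higher in place of 57.5%. No member changed direction there, with an array left out, with quantile normalization again or with array weights. The other settings tried leave each member's difference as it is, so its direction could not change under them.

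**Figure D1:**
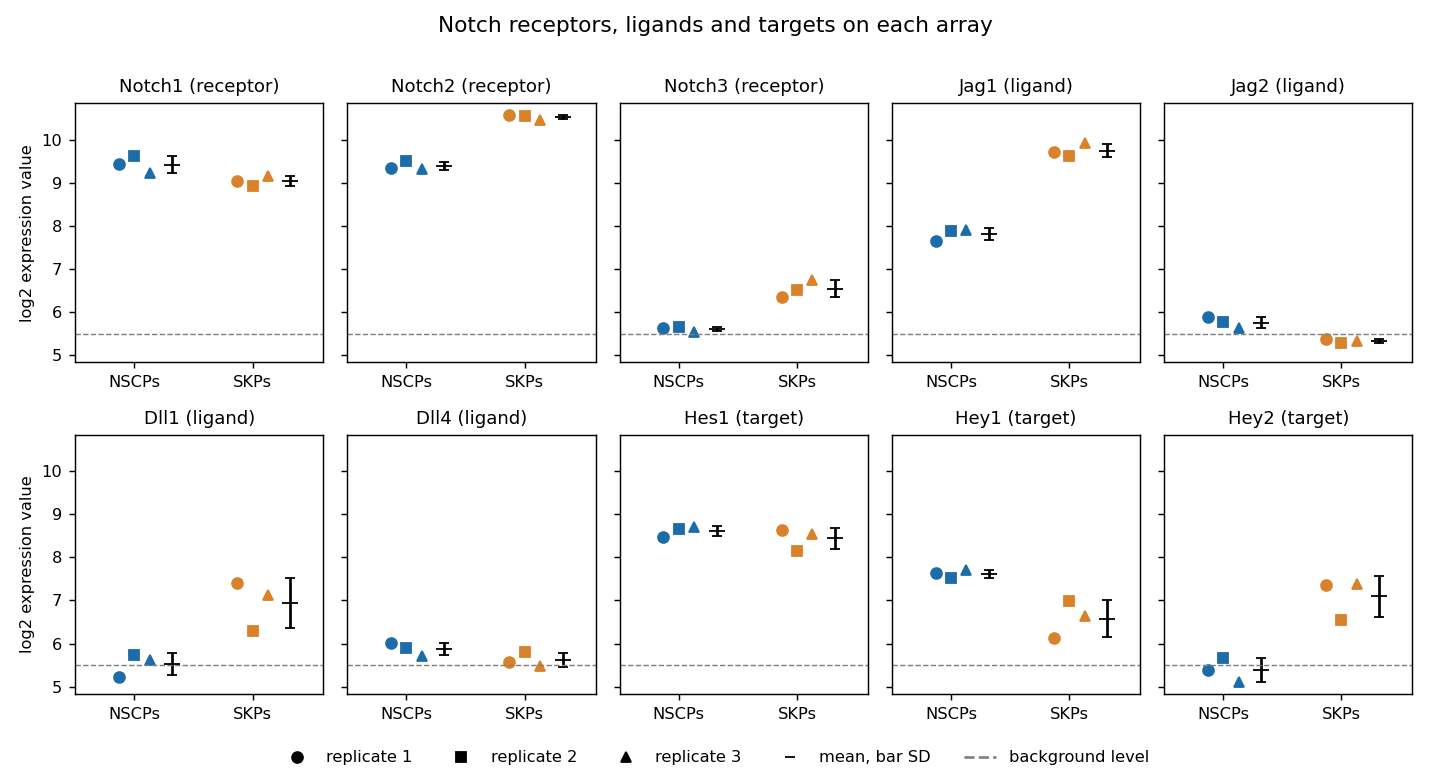
Deposited log2 expression values of the 10 Notch genes on the 3 NSCP and 3 SKP arrays. Points are arrays, shaped by replicate number, black marks are means with SD (n = 3), and the dashed line is the background level of 5.50 on the log2 scale. Jag1 and Notch2 lie lower in NSCPs with little spread, and Dll1, Hey1 and Hey2 spread most in SKPs.

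Marker lists were measured to check the nerve and skin labels. No list of markers of SKPs themselves was used, so the skin side rests on genes of dermal fibroblasts. Schwann lineage genes were higher in NSCPs in 10 of 10 measured members, against 25.2% of all genes. Their list mean was 11.08 to 11.18 on the log2 scale in NSCP arrays and 7.34 to 7.49 in SKP arrays. L1cam and Cadm4, adhesion genes of glia, were 30.3-fold and 29.3-fold higher. Dermal fibroblast genes were lower in 10 of 10, against 18.6% of all genes, with a list mean of 6.53 to 6.96 in NSCPs and 11.52 to 11.60 in SKPs. In NSCPs 6 of the 10 were within background, among them the matrix genes Lum and Dcn. Col1a1, Col1a2, Col3a1 and Twist2, named after their values were seen, were above it. The collagen genes Col1a1 and Col1a2 averaged 11.80 and 11.85 in NSCPs and were only 1.93-fold and 1.67-fold lower. Leukocyte genes were lower in 11 of 12, against 18.6% of all genes. The remaining member, C1qa, named after its value was seen, did not pass. The leukocyte list mean was 5.02 to 5.20 in NSCPs and 9.98, 9.16 and 9.43 in SKP replicates 1, 2 and 3. In NSCPs 9 of the 12 were within background, among them Lyz2 and Cybb. Pearson correlations across genes, which are not independent replicates, were 0.984 to 0.993 between arrays of 1 kind and 0.872 to 0.888 between kinds. Background here means the 95th percentile of the mean levels of 1344 olfactory and vomeronasal receptor genes, 5.50 on the log2 scale, because no detection calls were used. In bulk cultures fewer cells of a type and less RNA per cell cannot be told apart.

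**Figure D2:**
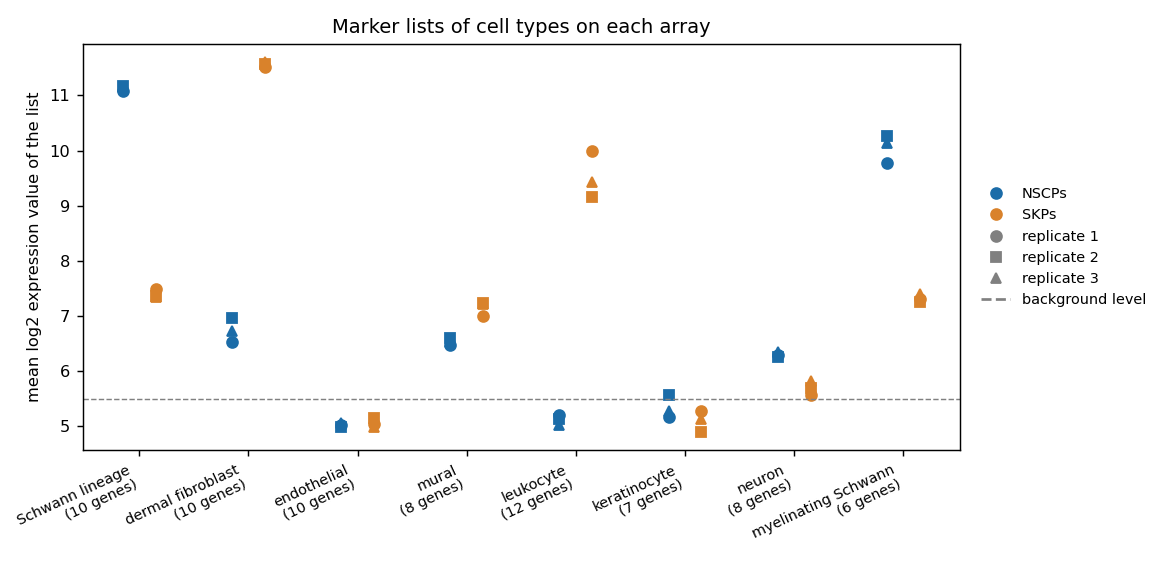
Mean log2 expression value of each marker list on each of the 3 NSCP and 3 SKP arrays, with the number of measured genes under its name. The Schwann lineage list is higher in NSCPs, the dermal fibroblast and leukocyte lists are higher in SKPs, and the endothelial list lies below the dashed background level of 5.50 in all 6 arrays.

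Among the receptors, Notch2 was lower in NSCPs. Its level was 9.35, 9.50 and 9.32 on the log2 scale in NSCP replicates 1, 2 and 3, against 10.56, 10.54 and 10.46 in SKP replicates 1, 2 and 3. Both groups were tight and far apart, and every array lay well above background. The difference of NSCPs minus SKPs was -1.13 (SE 0.12, 95% interval -1.39 to -0.86, adjusted p = 7.74e-05 by limma), which is 2.19-fold lower in NSCPs. Over all genes 15% had a larger difference in either direction.

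Notch1, the receptor studied most in Schwann cells, stood at 9.43, 9.61 and 9.22 in NSCPs and at 9.05, 8.92 and 9.16 in SKPs. All 3 NSCP arrays were above all 3 SKP arrays, by as little as 0.07 between the nearest pair. The difference of 0.38 (95% interval 0.06 to 0.70) did not pass, at an adjusted p of 0.0558 by limma. It passed when genes within background were left out of the test (adjusted p = 0.0376) and with each array centred on its median, where the difference was 0.58 (adjusted p = 0.00628).

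Notch3, a receptor known from smooth muscle and pericytes, the mural cells of vessels, was low in both cultures. NSCP arrays gave 5.62, 5.65 and 5.55, all just above the background level, and SKP arrays gave 6.35, 6.52 and 6.76. The groups did not overlap, and Notch3 was 1.91-fold lower in NSCPs (-0.93, SE 0.14, adjusted p = 6.09e-04 by limma). The NSCP mean of 5.61 lay close to the background of 5.50. Other mural genes were measured in the same arrays, and 3 of 8 were lower in NSCPs, against 18.6% of all genes: Cspg4 (-2.89), Pdgfrb (-1.31) and, named after its value was seen, Rgs5 (-0.91). The other 5 did not pass. Among these, also named after their values were seen, the smooth muscle genes Tagln, Myh11 and Des had differences of 0.23, 0.15 and 0.06. The mural list mean was 6.47 to 6.60 in NSCPs and 6.99 to 7.23 in SKPs, with Rgs5, Kcnj8, Abcc9 and Des within background in NSCPs and Des alone in SKPs. Whether these cells have a part in the Notch3 difference was not tested.

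Jag1 had the largest difference among the ligands and among all 10 genes. The gene encodes Jagged1, a transmembrane ligand of Notch receptors. It measured 7.64, 7.88 and 7.90 in NSCPs, against 9.72, 9.61 and 9.91 in SKPs. The means lay 12.6 times the larger SD apart, and both were above background. Jag1 was 3.84-fold lower in NSCPs (-1.94, SE 0.14, 95% interval -2.25 to -1.63, adjusted p = 7.71e-06 by limma). Of all genes 7.23% had a larger difference in either direction.

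Dll1, which encodes the Delta-like 1 ligand, was the second ligand lower in NSCPs. Its NSCP arrays gave 5.23, 5.73 and 5.61, and the SKP arrays gave 7.41, 6.29 and 7.13. SKP replicate 2 was the lowest of its group, yet above every NSCP array. The gene was 2.67-fold lower in NSCPs (-1.42, SE 0.27, adjusted p = 0.00312 by limma). The NSCP mean of 5.53 was 0.03 above the background level, so the size of the difference rests on a level close to background. Because SKP replicate 2 lay nearest to the NSCP arrays, leaving it out could only widen the difference, to -1.74. Without SKP replicate 1, the highest of its group, the difference was -1.19 and remained called.

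Jag2 and Dll4 were dim in both cultures. Jag2, which encodes the second Jagged ligand, measured 5.88, 5.77 and 5.62 in NSCPs and 5.38, 5.29 and 5.34 in SKPs. The groups did not overlap, but the SKP mean was within background, and the higher level in NSCPs amounted to 1.34-fold (0.42, SE 0.12, adjusted p = 0.0205 by limma). The call was lost without NSCP replicate 1 (adjusted p = 0.0604), without SKP replicate 2 (0.056) and without SKP replicate 3 (0.0664).

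Dll4, a ligand best known from the endothelium, the inner lining of vessels, measured 6.01, 5.89 and 5.72 in NSCPs and 5.58, 5.80 and 5.47 in SKPs. Its groups overlapped, and the difference of 0.25 did not pass (95% interval -0.06 to 0.57, adjusted p = 0.17 by limma). Of 10 measured endothelial markers 8 were within background in NSCPs and the same 8 in SKPs, including Cdh5, Tie1 and Vwf, which were named after their values were seen. The other 2 were Esam, at 5.63 in NSCPs and 6.30 in SKPs, and Egfl7, also named after its values were seen, whose difference of 0.13 did not pass. Esam was called lower (-0.67, adjusted p = 0.00422 by limma) and Emcn, within background in both, higher (0.47, adjusted p = 0.0101). The list mean was 4.98 to 5.06 in NSCPs and 4.98 to 5.14 in SKPs.

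**Figure D3:**
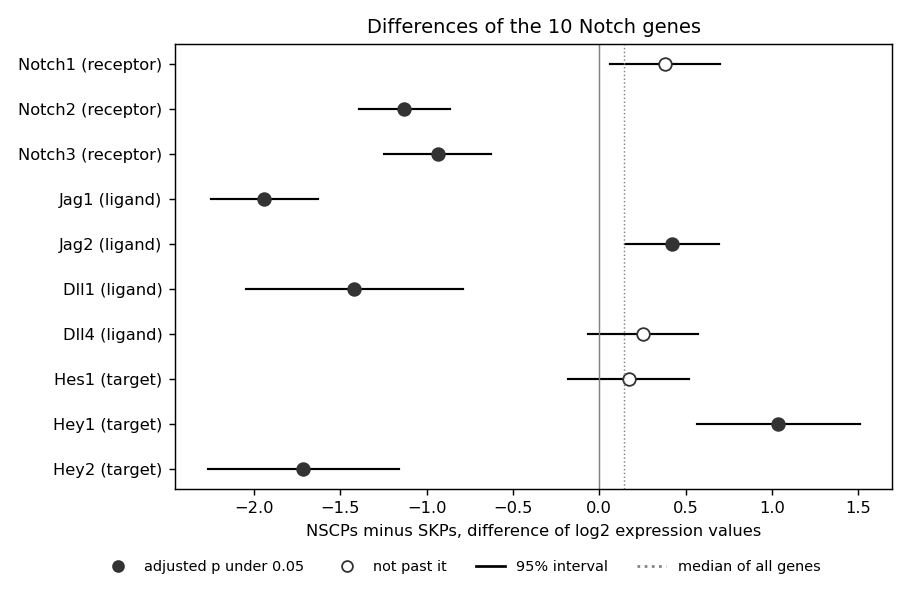
Differences of the 10 Notch genes, as NSCPs minus SKPs in log2 units, with 95% intervals from the limma fit over all genes. Filled points passed an adjusted p under 0.05, and the dotted line marks the median difference of all genes at 0.14. Jag1, Hey2, Dll1, Notch2 and Notch3 lie to the left of 0, and Hey1 and Jag2 to the right.

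The 3 target genes went different ways. Hes1, whose promoter with its pair of TGGGAA matches is printed above, encodes a repressor of neuronal differentiation genes. Its level was 8.48, 8.66 and 8.71 in NSCPs and 8.62, 8.16 and 8.55 in SKPs. The groups overlapped and the difference was 0.17 (95% interval -0.18 to 0.52, adjusted p = 0.39 by limma), so a change of more than 0.52 upward or 0.18 downward lies outside the interval. The difference was 0.03 without SKP replicate 2 and 0.38 with each array centred on its median, where it passed (adjusted p = 0.0478). Over all genes 74.8% had a larger difference.

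Hey1, a target that encodes a repressor related to the Hes proteins, was higher in NSCPs. It measured 7.64, 7.51 and 7.71 in NSCPs, against 6.12, 6.98 and 6.64 in SKPs. The NSCP arrays kept close together, while the SKP arrays ranged over 0.86 with replicate 2 the highest. Hey1 was 2.05-fold higher in NSCPs (1.04, SE 0.21, 95% interval 0.57 to 1.51, adjusted p = 0.00367 by limma). A test against a 1.5-fold change itself, limma's treat, did not call it (adjusted p = 0.154).

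Hey2, the paralog of Hey1, was lower in NSCPs. NSCP arrays gave 5.39, 5.65 and 5.11, and SKP arrays gave 7.36, 6.55 and 7.39. The groups did not overlap, and here SKP replicate 2 was the lowest of its group. Hey2 was 3.28-fold lower in NSCPs (-1.71, SE 0.24, 95% interval -2.27 to -1.16, adjusted p = 5.43e-04 by limma). The NSCP mean of 5.38 was within background, so the fold rests on a background level. Of all genes 8.88% had a larger difference.

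Among the SKP arrays, replicate 2 was the lowest for 6 of the 10 genes, Notch1, Jag1, Jag2, Dll1, Hes1 and Hey2. It was the highest for Dll4 and Hey1. Replicates 1 and 3 were each the lowest for 2 of the 10 genes and the highest for 4. Replicate 2 was thus the lowest or highest for 8 genes, and each of the others for 6. The same array had the lowest mean of the leukocyte list, 9.16 against 9.98 and 9.43 in the other SKP arrays, and of the keratinocyte list, 4.90 against 5.28 and 5.13. It had the highest mean of the mural list, 7.23, but close to replicate 3 at 7.21, with replicate 1 at 6.99. Its mean of the endothelial list was also the highest, 5.14 against 5.04 and 4.98 in replicates 1 and 3. The keratinocyte and endothelial list means lay below the background level in every SKP array. In SKPs 4 of 7 keratinocyte markers and 8 of 10 endothelial markers were within background. No difference in cells is therefore read from either list. For Hey1 and Hey2, SKP replicate 2 was the SKP array nearest to the NSCP arrays. Leaving it out could therefore only widen their differences, to 1.24 and -1.99. The differences of Hey1 and Hey2 were 0.81 and -1.58 without SKP replicate 1. They were 1.07 and -1.57 without SKP replicate 3, and both genes remained called in each case. Both leukocyte genes and dermal fibroblast genes were lower in NSCPs, with list medians of -5.00 and -5.18, beside the 5 lower Notch genes, and the part of neither in those differences was tested.

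Pairs of related genes were also compared within each array, where a shift of a whole array cancels. Only the change between the groups is read, since the levels of different probe sets cannot be set against each other. The pairs were chosen after their members' opposite differences were seen, so they are described without a test and their separation is no further evidence. Hey1 minus Hey2 was 2.24, 1.86 and 2.60 in NSCPs and -1.24, 0.43 and -0.75 in SKPs. The means differed by 2.75 on the log2 scale, a value that rests on Hey2 within background in NSCPs.

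Notch1 minus Notch2 was 0.09, 0.11 and -0.10 in NSCPs and -1.51, -1.62 and -1.30 in SKPs, a difference of 1.51. Jag2 minus Jag1 differed by 2.36, with Jag2 close to background in both cultures.

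**Figure D4:**
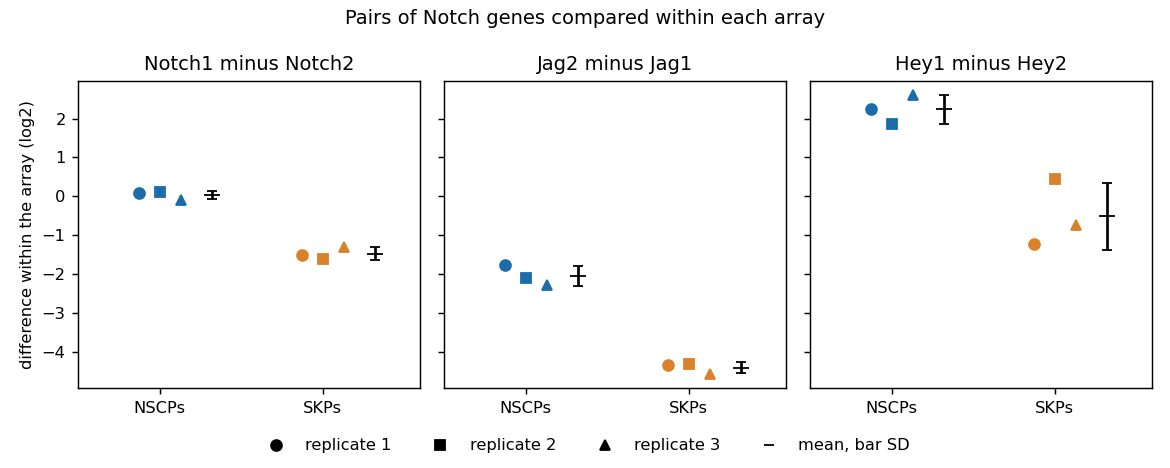
Difference of log2 expression values between 2 Notch genes within each array, for 3 NSCP and 3 SKP arrays. Points are arrays, shaped by replicate number, and black marks are means with SD (n = 3). Hey1 minus Hey2 lies between 1.86 and 2.60 in NSCPs, where Hey2 is within background, and between -1.24 and 0.43 in SKPs.

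Other genes of the pathway were taken from lists by role, 66 genes in all, of which 55 were measured. Of these 55, 10 were higher and 10 lower in NSCPs, which is 36.4%, against 43.7% of all genes, and their median difference was 0.03. The counts changed to 6 higher and 6 lower without NSCP replicate 3, to 6 higher and 8 lower without SKP replicate 3, and to 19 higher and 6 lower with each array centred on its median. Called differences of at least 2-fold were found for 6 of the 55, or 10.9%, against 17.4% of all genes.

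Further receptors and ligands, several of them binding partners of Notch outside the Jagged and Delta families, had 4 of 8 members lower in NSCPs, against 18.6% of all genes. Mfap2, which encodes a protein of elastic microfibrils, was 26.3-fold lower at 6.11 ± 0.70 in NSCPs, against 10.83 ± 0.08 in SKPs (mean ± SD, n = 3 arrays each). The adhesion gene Cntn1 was lower by a difference of -3.51 with its NSCP mean within background, and Dlk1, which encodes a Delta-like protein without the domain that activates Notch, was 6.06-fold lower. The 4th, named after its value was seen, was Mfap5 (-0.73).

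Further Hes and Hey family genes and targets had 4 of 7 members higher in NSCPs, against 25.2% of all genes, and 2 of the 4 were within background in both groups. Nrarp, a target whose product feeds back to restrain Notch signalling, had the largest difference at 6.55 ± 0.21 in NSCPs, against 5.27 ± 0.02 in SKPs (mean ± SD, n = 3 arrays each). It was higher by 1.28 (SE 0.14, adjusted p = 9.35e-05 by limma), with its SKP mean within background. Hes7 (0.57) was higher as well, and Hes3 (0.46) and, named after its value was seen, Hes2 (0.45) were the 2 within background. Hes5, a target prominent in the nervous system and also named after its values were seen, averaged 4.87 in NSCPs and 4.94 in SKPs, within background in both.

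Of 6 measured genes for the proteolysis of receptors 1 was higher and 2 were lower, against 25.2% and 18.6% of all genes. Furin, which cleaves the receptor on its way to the surface, was 1.98-fold lower, Psen2, which encodes a catalytic subunit of γ-secretase, was 1.48-fold lower, and Adam17, a sheddase gene, was 1.34-fold higher in NSCPs. Among 6 glycosylation genes 1 was called, against 43.7% of all genes. It was Lfng, named after its value was seen, which encodes a Fringe enzyme that alters the response of receptors to ligands. Lfng was higher by 0.67 (adjusted p = 0.0178 by limma). The glucosyltransferase gene Poglut1 and the xylosyltransferase gene Gxylt1, the 2 with the highest mean, had differences of 0.09 and -0.08 that did not pass.

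Of 13 trafficking and ubiquitin ligase genes 2 were called, against 43.7% of all genes. Dtx3, which encodes a member of the Deltex family, was 4.83-fold lower at 6.02 ± 0.18 in NSCPs, against 8.29 ± 0.23 in SKPs (mean ± SD, n = 3 arrays each), and the epsin gene Epn2 was 1.44-fold higher. Nuclear coactivators had 2 higher and 3 lower among 6, against 25.2% and 18.6% of all genes. The acetyltransferase gene Kat2b was 3.13-fold higher at 10.54 ± 0.20 in NSCPs, against 8.90 ± 0.16 in SKPs (mean ± SD, n = 3 arrays each). Snw1 was higher (0.60), and the Mastermind gene Maml1 was lower (-0.74). Among 9 corepressor genes 1 was called, against 43.7% of all genes. It was Tle1, named after its value was seen, higher by 0.93 in NSCPs. Ctbp1 and Ncor1, with the highest means, had differences of 0.10 and -0.05 that did not pass.

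**Figure D5:**
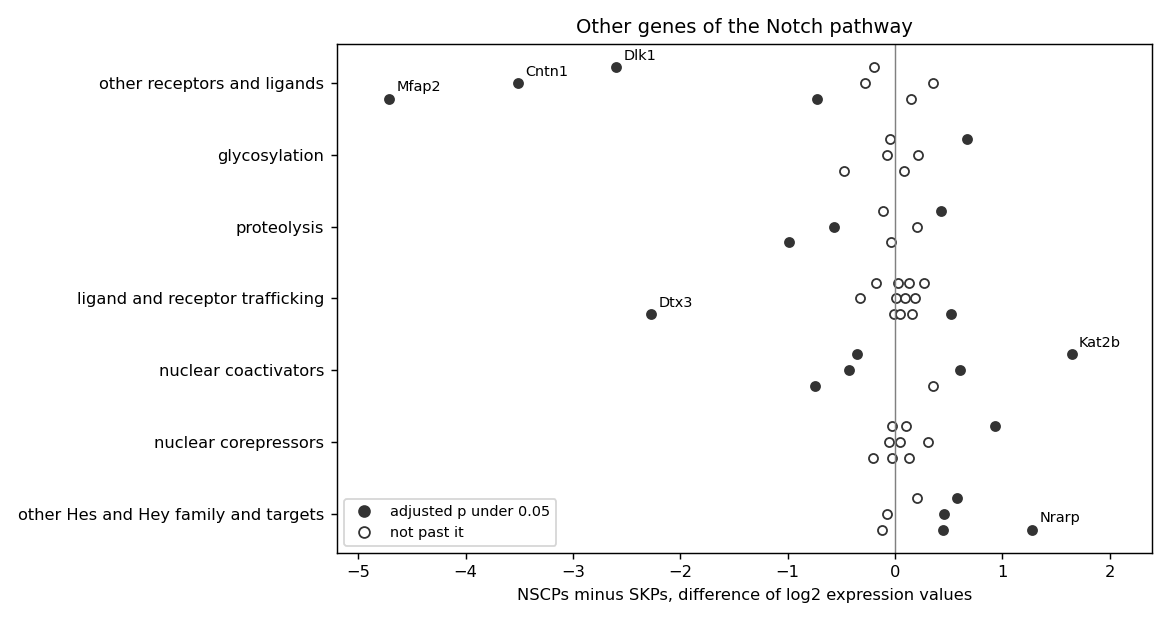
Differences of the 55 other Notch pathway genes, NSCPs minus SKPs on the log2 scale, by role. Each point is a gene, filled where it passed an adjusted p under 0.05, and called genes that differ by at least 1 are named. Mfap2, Cntn1, Dlk1 and Dtx3 lie far to the left, and Kat2b and Nrarp to the right.

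Of 6 measured genes of myelinating Schwann cells 5 were higher in NSCPs, against 25.2% of all genes, and 1 was lower, against 18.6%. The part of Notch signalling in these differences was not tested. Mbp, the gene of myelin basic protein, was 32.1-fold and Pou3f1, a transcription factor gene of promyelinating Schwann cells, 20.6-fold higher, both with SKP means within background. The lower member, named after its value was seen, was Egr2, at 9.78 ± 0.19 in NSCPs, against 11.68 ± 0.13 in SKPs (mean ± SD, n = 3 arrays each).

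The genes whose pattern over the 6 arrays was most like that of the 3 members with the largest difference were found by the root mean square difference of log2 values centred on each gene's mean, over all genes. For Jag1 they were Fam117a (0.09) and Zfp827 (0.09). For Hey2 they were the transporter gene Slc2a9 (0.10) and the apoptosis gene Bid (0.11), and for Dll1 Zfp385d (0.10) and Fam241a (0.14). All 6 neighbours were lower in NSCPs, as the measure requires, and with 6 arrays in 2 groups many genes lie close to any such pattern.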

How the data were processed

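The authors deposited a log2 value for every probe set on every array, computed with oligo and RMA (background correction, quantile normalization across arrays and summary of probes), per the submitters' processing notes, which give no versions. Quantile normalization hides a shift of all genes in 1 group. The labels give 400 ng of total RNA as the input for cDNA. Neither array batches nor scan dates were known.

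The deposited log2 values of 36685 probe sets were used as they are. Of these, 18511 have 1 gene symbol in the platform table, 575 several and 17599 none. By Entrez ID 18394 symbols were matched to RefSeq and 117 kept the table's symbol. Where a gene had several probe sets, the brightest on average stood for it, which left 18166 genes. NSCPs and SKPs were compared with limma 3.58.1 under R 4.3.3, using lmFit and eBayes. Tests were two-sided, and p-values were adjusted by Benjamini-Hochberg across all 18166 genes. Figures were drawn with matplotlib 3.10.9. The fit was tested on simulated data. The number of arrays limits the precision. The genome build of the probe sets is not stated, so no gene coordinates are printed beyond those of the RefSeq promoters.

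The 10 genes, the lists and the tests were chosen with earlier results of these data known. By rule, the text names all 10 genes, up to 3 called genes with the largest difference per pathway list (or, with fewer than 2 called, the 2 with the highest mean), up to 2 called genes per marker list (markers listed as within background, and others so marked, were named after their values were seen), and the 2 nearest patterns for each of 3 members. Of the other marker lists, neuronal genes had 2 higher and 3 lower among 8 (Nefl and Tubb3 higher). The 3 lower, named after their values were seen, were Elavl4 (-1.30, within background in both groups), Stmn2 (-0.71) and Gap43 (-0.69). Keratinocyte genes had 2 higher and 1 lower among 7 (Cdh1 higher, Dsg3 lower). Over all genes 25.2% were higher and 18.6% lower. Alternatives covered each array left out, the replicate block, normalization, filters on dim genes, the choice of probe set, the variance prior, array weights and treat.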

Additional observations from a re-analysis of the deposited data

How the results depend on the processing

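Under 17 alternatives, 156 of 169 values of the 10 genes kept their direction and their side of the threshold. Of the rest, 6 were no longer called, 7 became called and none, in limma, changed sign. The replicate block, the filters, the choice of probe set, the variance prior and treat leave each member's difference unchanged. Under these only the adjusted p could move, so the sign was open only with arrays left out, renormalized, centred or weighted. Notch2, Jag1, Dll1 and Hey2 were called under all 17. Notch1 passed in 5 of them (adjusted p = 0.0412 without NSCP replicate 3, 0.0376 and 0.0363 with the filters on dim genes, 0.0385 with the trended prior, 0.00628 with centred arrays). With centred arrays Dll4 (0.0285) and Hes1 (0.0478) passed too. Jag2 was left out by the filter at the median of all probe sets. Members called higher numbered 1 to 3 and members called lower 5 in each fit with an array left out. The other pathway genes numbered 6 to 9 higher and 6 to 10 lower, and all genes 3495 to 4250 higher and 2846 to 3267 lower. With centred arrays 5 members, 19 other pathway genes and 8148 genes were higher, and 6 other pathway genes were lower. Against a 1.5-fold change, limma's treat called 0 members higher (1 at an unadjusted p under 0.05) and 4 lower, 2 other pathway genes higher and 4 lower, and 1295 genes higher and 1608 lower; Notch3 (adjusted p = 0.0885), Jag2 and Hey1 were no longer called. With the replicate number as a block, 2 members were higher and 5 lower, and 4378 genes were higher and 3303 lower; deviations of same-numbered arrays from their group means correlated by 0.0283 to 0.0501, too little to pair the samples, although each array correlated best with its own number, a hint from the data and not from the design. The cause of these changes was not tested, beyond fewer arrays or a stricter null. Levels near background, those of Notch3, Dll1 and Hey2 in NSCPs and of Jag2 and Dll4 in both, limit the folds.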
